A study of Mus musculus with 13 samples.

Results

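RNA precipitated with the J2 antibody was compared between Yumm1.7 cells treated with ADAR1i-124 and Yumm1.7 cells treated with DMSO. Yumm1.7 is a mouse melanoma cell line, and its genotype is labelled WT in every library. ADAR1i-124 is a small molecule described by the study as an inhibitor of the editing enzyme ADAR1, and it was given at 10 µM for 12 h. DMSO is the solvent control, and its exposure time is not given in the sources used here. Each treatment has 1 J2 library and 1 library of total RNA, so no difference has a replicate check and no test was run. Further libraries are shown beside these where they bear on a value: J2 precipitates after 5-Aza-CdR (a DNA methylation inhibitor, 1 µM for 72 h) and after the combination of both compounds, precipitates with Z22 (an antibody to Z-form RNA), and 1 IgG precipitate. In the combination, 5-Aza-CdR for 72 h was followed by ADAR1i-124 at 10 µM for 12 h. The treatment behind the IgG library is not given in the sources used here. Of 54532 genes in the count table, 13522 averaged 1 CPM or more in the pair of J2 libraries, and these are the genes compared. CPM is the gene's count divided by the library's summed counts and scaled to 1e+06. The gene just inside this minimum, Mroh2a, had 21 and 4 counts (DMSO, then ADAR1i-124), and the gene just outside it, Fam228a, had 4 and 24. Differences are given as log2 of CPM plus 0.5, ADAR1i-124 minus DMSO, so that 1 is a 2-fold and 2 a 4-fold higher value, and the added 0.5 CPM understates the difference of low genes. Of the compared genes, 13032 also averaged 1 CPM or more in the pair of total RNA libraries. For those the difference in total RNA was subtracted from the difference in J2. This removes abundance only if the J2 and total RNA libraries of a treatment came from like cells, which was not tested.

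ADAR1, encoded by Adar, deaminates adenosine to inosine within double-stranded RNA. Such RNA forms in a single transcript when a repeat lies near a second copy of itself in the opposite orientation, often in introns and untranslated regions, and inosine weakens the pairing. The J2 antibody binds double-stranded RNA by its helix and not by its sequence. Before precipitation the RNA was treated with RNase I, which cuts single-stranded RNA, so that paired stretches are kept in preference. In cells, the sensors MDA5 (encoded by Ifih1), PKR (Eif2ak2) and ZBP1 (Zbp1) bind double-stranded or Z-form RNA and start interferon signalling, translational arrest or cell death. The comparison asks which transcripts were more or less represented in the J2 precipitate when the editing enzyme was inhibited.

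Sequences that could pair were looked for in the hosts of hyper-edited regions, which are genes with an exon on a region where the study found clustered A-to-I sites. Of 373 hyper-edited regions in all, 291 lay on an exon. A reverse-complement match within 2500 bases in the GRCm38 genome was found for 155 of the 373 (41.6%) and for 116 of the 291. Over all 155 the median match was 89 bases long with 79.8% identity, at a distance of 880 bases. The pairs below show how well the arms match in Wdr76 and Gnl3l, followed by the study as edited transcripts, and in Mad2l1, Gen1 and Rpa1, chosen after their values were seen because their J2 values were at least 2-fold higher with ADAR1i-124. All 5 were higher in J2, so they are no sample of the hosts. Iws1, the third transcript that the study follows, was lower in J2 and also had a match in its own exon, of 138 bases with 75.4% identity, which is not printed. Each line gives the best ungapped 30 bases of one arm, read 5′ to 3′ on the strand of the gene. Capitals mark bases that pair with the other arm by Watson-Crick rules.
Wdr76, arm in the region, chr2:121544257-121544286, plus strand: ATAcCCTCTGAAAAGTTCCCAGAgTTCCAA
Wdr76, opposite arm, chr2:121543769-121543798, plus strand: TTGGAAtTCTGGGAACTTTTCAGAGGtTAT
Gnl3l, arm in the region, chrX:150985499-150985528, minus strand: CCTTTAATCCtAGCACTctGGAGGCAGAGG
Gnl3l, opposite arm, chrX:150984510-150984539, minus strand: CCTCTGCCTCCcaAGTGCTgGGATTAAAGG
Mad2l1, arm in the region, chr6:66540208-66540237, plus strand: TAGAAAAACTTCTgTTAAAAcGCTAAcTAC
Mad2l1, opposite arm, chr6:66540705-66540734, plus strand: GTAtTTAGCtTTTTAAaAGAAGTTTTTCTA
Gen1, arm in the region, chr12:11239311-11239340, minus strand: AGaACAGCCAaGGCTATACAGAaAAACCCT
Gen1, opposite arm, chr12:11240818-11240847, minus strand: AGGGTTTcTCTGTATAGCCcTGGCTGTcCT
Rpa1, arm in the region, chr11:75300554-75300583, minus strand: GACAcAATccCTGTTTGAAGATAACAgAAT
Rpa1, opposite arm, chr11:75301011-75301040, minus strand: ATTtTGTTATCTTCAAACAGaaATTaTGTC
Of the 30 bases, 28 paired in Wdr76, 27 in Gnl3l, Mad2l1 and Gen1, and 26 in Rpa1. In each of these genes the opposite arm lay in an exon of the same gene. Further regions, not printed, had 27, 26 and 22 paired bases in Gnl3l, 27 in Mad2l1 and 26 in Rpa1.

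The J2 libraries held 12183560 counts (DMSO) and 14396132 counts (ADAR1i-124), and the total RNA libraries 17015425 and 17617961. A count of 3, the smallest taken as detected, equals 0.246 and 0.208 CPM in the J2 libraries. The locus Gm42418, which resembles ribosomal RNA, took 18.9% and 16.1% of the J2 counts, 14.2% of the IgG counts and 0.334% and 0.284% of the total RNA counts. The J2 library of treated cells was closer to the IgG control than to the J2 library of DMSO cells. Over 8889 genes that averaged 10 CPM or more, Pearson's r of log2 CPM between the J2 libraries was 0.873. The J2 library of treated cells had r of 0.948 with IgG and 0.963 with the Z22 library of treated cells, whereas the J2 library of DMSO cells had 0.876 with IgG and 0.911 with the J2 library of the combination. With total RNA of DMSO and of treated cells, the J2 library of treated cells had 0.906 and 0.887, so that it was closer to total RNA of the other treatment, and the J2 library of DMSO cells had 0.876 and 0.808. These are descriptions across genes of single libraries that share 1 cell line, and the total RNA libraries, unlike the others, were not precipitated. Genes of the Y chromosome went against each other in the pairs. Ddx3y, an RNA helicase gene, had 321 and 21 counts in J2 (DMSO, then ADAR1i-124) but 57 and 861 counts in total RNA. The summed level of the 4 measured Y-linked genes, a list added after values were seen, was 63.4 and 3.13 CPM in J2, 6.88 and 115 CPM in total RNA and 24.3 CPM in IgG. Of these 4 genes, all were at least 4-fold lower in J2 (2.71% of all genes were), and all were at least 2-fold higher in total RNA (6.88%). Separate cultures behind the J2 and total RNA pairs, or labels exchanged within a pair, were not tested and cannot be told apart from these counts. RNA editing levels were not used here. Every direction below rests on the labels as given, and an exchange within a pair would turn the sign of all its differences. An exchange within only 1 of the pairs would also change the size of J2 minus total, and with it the ranks by that value. Leaving out a library leaves no comparison.

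Markers were read against the label. Of 12 melanocyte genes, only Mitf and Gpnmb passed the minimum, and Mlana, Tyr, Tyrp1, Dct, Slc45a2 and Kit had 0 counts in both J2 and both total RNA libraries. Of 12 neural crest and dedifferentiation genes, 10 passed, among them Axl, Pax3, Sox9 and Vim. Cd68 was the 1 leukocyte gene of 10 to pass, with 726 and 93 counts in J2 and 141 and 343 in total RNA. Cdh5 was the 1 of 10 endothelial and epithelial genes to pass, with 100 and 45 counts in J2. The other 9 leukocyte genes, among them Ptprc with 1 and 0 counts, had at most 6 counts in either J2 library. The part of Cd68 and Cdh5 in other differences was not tested.

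In the J2 precipitate, 111 genes were at least 4-fold higher with ADAR1i-124 (0.821% of the compared genes) and 366 at least 4-fold lower (2.71%). At 2-fold the numbers were 996 (7.37%) and 1460 (10.8%). The median over all genes was 0.00, and the middle 90% lay between −1.52 and 1.19. After subtraction of total RNA, 394 genes were at least 4-fold higher (3.02%) and 492 lower (3.78%), and 2058 (15.8%) and 1712 (13.1%) at 2-fold, around a median of 0.12. In total RNA the same 13032 genes had a median of −0.10, with 897 (6.88%) at least 2-fold higher and 1112 (8.53%) lower. Most of the genes past 4-fold upward in J2 were not past 2-fold upward in total RNA, although the share that was lay above that of all genes. Of 110 genes at least 4-fold higher in J2 and measured in total RNA, 14 (12.7%) were also at least 2-fold higher in total RNA and 4 (3.64%) were lower, beside 6.88% and 8.53% of all genes. Among the 316 genes at least 4-fold lower in J2, 146 (46.2%) were at least 2-fold lower in total RNA and 72 (22.8%) were higher, beside 8.53% and 6.88% of all genes. The genes past the 4-fold line had much the same exon length as the rest, with medians of 3991 bases (higher), 4101 bases (lower) and 4071 bases (all compared genes). Genes with an exon facing an exon of a gene on the other strand made up 27.0% of the higher, 23.5% of the lower and 28.4% of all genes, and the median J2 difference of those 3847 genes was −0.01 against 0.01 in the 9669 genes without such an exon. The lower genes were weakly represented, with a median of 8.01 CPM over both J2 libraries, against 30.2 CPM in the higher genes and 19.5 CPM in all genes.

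The genes past 4-fold were chosen on these same J2 libraries, so their values against IgG are a description only. The 111 higher genes had a median log2 difference from IgG of −1.94 in J2 from DMSO cells and 0.28 in J2 from treated cells. The 366 lower genes had 1.75 and −0.78. In J2 from DMSO cells, 374 genes (2.81% of 13293) were at least 4-fold above IgG and 89 (0.67%) below, and in J2 from treated cells 74 (0.573% of 12923) were above and 74 below. A J2 pair that shares no library with these, the combination against 5-Aza-CdR alone, had 30 genes (0.211% of 14196) at least 4-fold higher and 4 (0.0282%) lower. In the Z22 precipitates of the same treatments, 1686 genes (13.2% of 12799) were at least 4-fold higher and 121 (0.945%) lower with ADAR1i-124. The Z22 library of DMSO cells stood apart, with 34.9% of its counts on Gm42418 against 14.6% in that of treated cells.

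**Figure D1:**
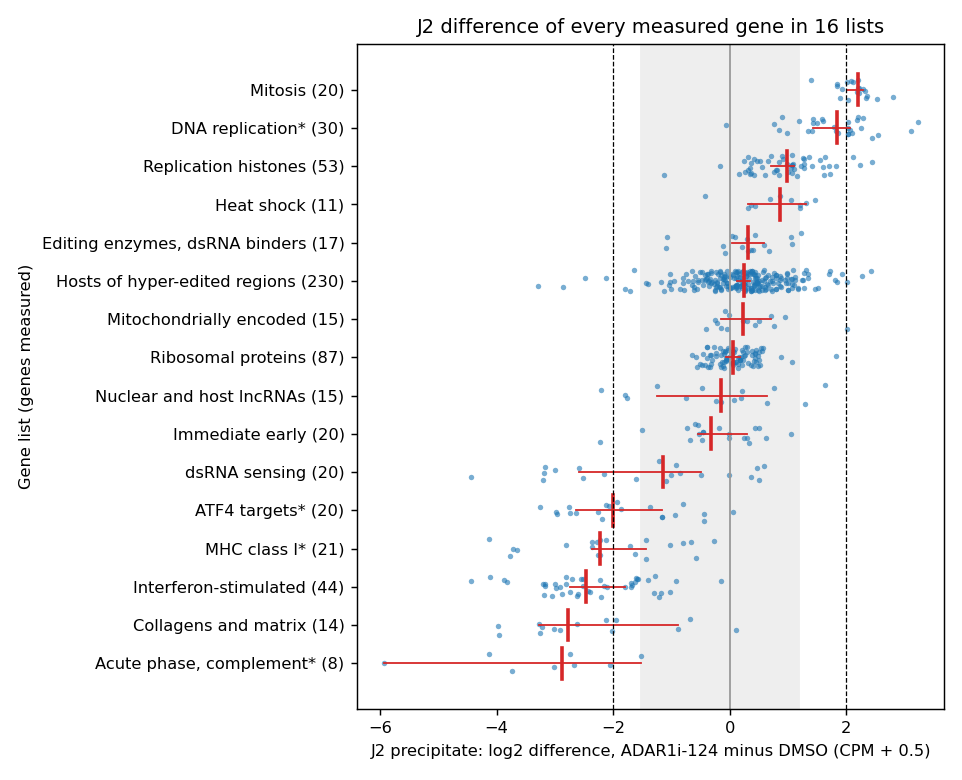
J2 log2 difference (ADAR1i-124 minus DMSO, CPM plus 0.5) of every measured gene in 16 gene lists, 1 point per gene, with the list's median (thick red bar) and its 95% interval over genes (thin red line), the middle 90% of all compared genes (grey band, −1.52 to 1.19) and 4-fold lines (dashed). The 20 mitosis genes lie between 1.40 and 2.81, and the interferon-stimulated, MHC class I, ATF4 target, collagen and acute phase lists have medians at or below −2.01; an asterisk marks lists added after values were seen.

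Genes of cell division had the highest median of all lists in the J2 comparison. All 20 mitosis genes were at least 2-fold higher (7.37% of all genes were), 15 of them at least 4-fold (0.821%), with a median of 2.19 (95% interval over genes 2.01 to 2.28). Their median in total RNA was −0.49, with no member past 2-fold in either direction, so that J2 minus total had a median of 2.64. Mki67, the proliferation antigen Ki-67, had 2034 counts (167 CPM) with DMSO and 16861 counts (1171 CPM) with ADAR1i-124 in J2, a difference of 2.81 (95% counting interval 2.74 to 2.88). Its total RNA level was 895 and 640 CPM. It stood at 673 CPM in IgG, 134 CPM in J2 after 5-Aza-CdR and 167 CPM after the combination. The low values were those of J2 from DMSO, 5-Aza-CdR and combination cells, and the high ones were those of J2 from ADAR1i-124 cells, IgG and total RNA. Kif11, a motor of the bipolar spindle, had 334 and 2302 counts in J2 (27.4 and 160 CPM) and 148 and 96.4 CPM in total RNA. Cdc20, an activator of the anaphase-promoting complex, had 246 and 1484 counts in J2, and Cenpf, a kinetochore protein gene, had 851 and 4910. Nusap1 and Kif20a, which organise spindle microtubules, differed by 2.36 and 2.34 in J2. Against IgG, all 20 genes were at least 2-fold lower in J2 from DMSO cells (8.97% of 13293 genes were), and none was 2-fold away in J2 from treated cells. The combination against 5-Aza-CdR gave the list a median of −0.28. In bulk RNA, fewer cells in a phase of the cycle and less RNA per cell cannot be told apart.

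DNA replication genes, a list added after values were seen, followed the same course. Of 30, 25 were at least 2-fold higher in J2 (7.37% of all genes were), 14 at least 4-fold (0.821% of all genes), and none was 2-fold lower, with a median of 1.85 (1.42 to 2.06) in J2 and −0.17 in total RNA. Ccne2, which encodes a cyclin that drives entry into S phase, had 121 and 1397 counts in J2 (9.93 and 97.0 CPM) and 55.1 and 62.6 CPM in total RNA. Its J2 difference of 3.23 (3.02 to 3.57) was the largest upward difference among compared genes that averaged 10 CPM or more. Rrm2, a subunit of ribonucleotide reductase, had 331 and 3440 counts in J2 (27.2 and 239 CPM) against 189 and 218 CPM in total RNA. Prim1, the primase subunit that starts new DNA strands, had 109 and 784 counts, and Clspn, a replication checkpoint gene, 247 and 1443. Exo1, Fbxo5, Parpbp, Fam83d, Sgo2a and Knl1, which act in DNA repair, anaphase timing or chromosome segregation, were among the 15 largest J2 differences, between 2.47 and 2.75. Their total RNA differences lay between −0.80 and 0.09.

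Replication-dependent histone mRNAs carry a stem-loop at their end in place of a poly(A) tail. In J2, 26 of 53 measured histone genes were at least 2-fold higher (7.37% of all genes were) and 1 was lower, with a median of 0.99 (0.71 to 1.10). The median in total RNA was 0.99 too, and J2 minus total had a median of −0.14 with a wide spread. Of 52 genes measured in both, 15 were at least 2-fold higher in J2 minus total and 15 lower (15.8% and 13.1% of all genes). On opposite sides of 0 in J2 and total RNA lay 13 of the 52, beside 153 of 301 zinc finger genes, and the share over all genes was not counted. Hist1h1b, a linker histone, was one of those 13, with 498 and 3227 counts in J2 and 141 and 78.6 CPM in total RNA. Hist1h3g had 37 and 231 counts in J2 and 84 and 505 in total RNA. Histone genes are near-identical copies, and how shared reads were counted is not stated, so single members are uncertain.

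**Figure D2:**
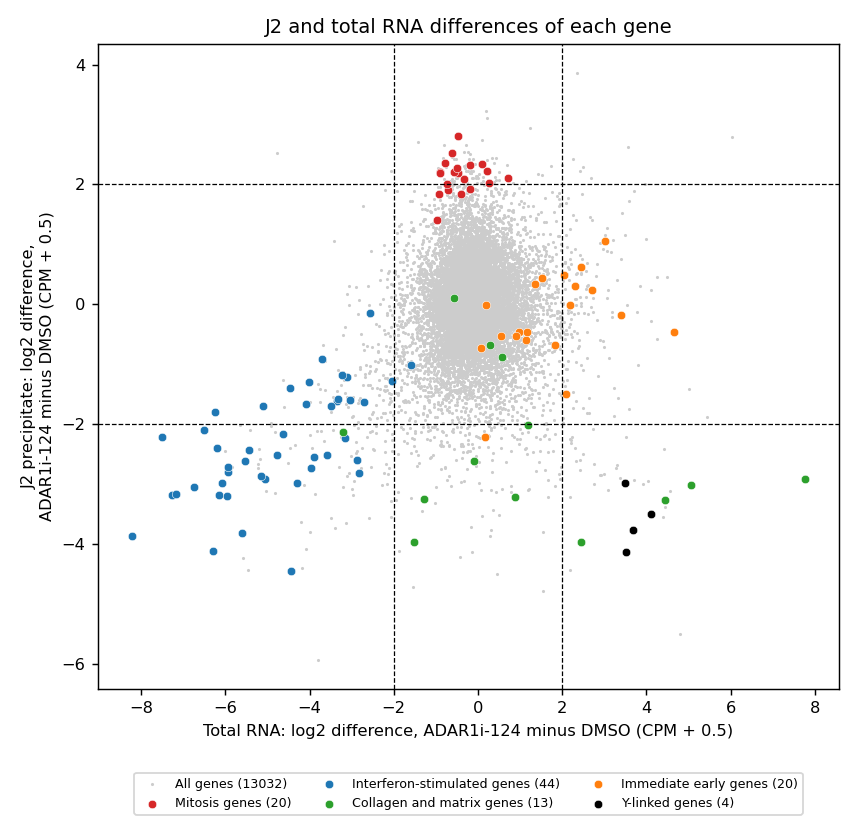
J2 log2 difference (vertical) against total RNA log2 difference (horizontal), both ADAR1i-124 minus DMSO, for the 13032 genes measured in both, with 4-fold lines (dashed) and 5 lists coloured. Mitosis genes lie above 1.40 in J2 and near 0 in total RNA, interferon-stimulated genes lie low on both axes and further out in total RNA, immediate early genes lie right of 0 with a J2 median of −0.32, and the 4 Y-linked genes lie at the lower right.

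In the libraries labelled ADAR1i-124, interferon-stimulated genes were lower in the J2 precipitate and lower still in total RNA. Of 44 measured genes, 42 were at least 2-fold lower in J2 (10.8% of all genes were) and 28 at least 4-fold (2.71%), with a median of −2.47 (−2.73 to −1.80). In total RNA all 44 were at least 2-fold lower (8.53% of all genes were), with a median of −4.54. J2 minus total was therefore above 0 in 43 of 44 genes and at least 2-fold in 38 (15.8% of all genes), with a median of 2.34. Ifit3, which binds foreign RNA ends as part of the IFIT complex, had 3983 and 264 counts in J2 (327 and 18.3 CPM) and 3863 and 42 in total RNA (227 and 2.38 CPM). Ifi44 had 3701 and 293 counts in J2 and 4564 and 7 in total RNA. Irf7, the transcription factor that amplifies interferon production, had 1547 and 192 counts in J2 and 1422 and 15 in total RNA. The levels in J2 after 5-Aza-CdR and the combination were 813 and 640 CPM for Ifit3 and 403 and 357 CPM for Irf7, above both J2 libraries compared here. The summed level of the list was 4961 and 992 CPM in J2, 5849 and 301 CPM in total RNA and 4105 CPM in IgG. Compared with IgG, 38 of the 44 genes were at least 2-fold lower in J2 from treated cells (4.46% of 12923 genes were). In J2 from DMSO cells 4 were at least 2-fold lower and 12 higher (8.97% and 13.5% of 13293 genes). Iigp1, Rtp4, Cmpk2, Oas2, Oasl2 and Igtp, all interferon-induced, were among the 10 genes with the highest J2 minus total at 10 CPM or more in J2 and 5 CPM or more in total RNA, at 3.78 to 5.30. Their total RNA counts with ADAR1i-124 were 2 to 29, so these values rest on few counts.

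The sensors of double-stranded RNA followed the interferon-stimulated genes with which they share members. Of 20 measured genes, 12 were at least 2-fold lower in J2 (10.8% of all genes were) and 15 in total RNA (8.53%), with medians of −1.15 (−2.59 to −0.50) and −3.23. Zbp1 had 551 and 23 counts in J2 (45.2 and 1.60 CPM) and 427 and 12 in total RNA (25.1 and 0.68 CPM), so that its J2 and total differences, −4.45 and −4.44, were alike. Oas2 and Oas3, which make the 2′-5′ oligoadenylate that activates RNase L, had 1110 and 138, and 1448 and 209 counts in J2. Oas2 was at 94.7 and 0.11 CPM in total RNA. Eif2ak2 had 3060 and 1696 counts in J2, a difference of −1.09 against −2.42 in total RNA.

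Adar itself had 2146 and 1199 counts in J2 (176 and 83.3 CPM), a difference of −1.08 (−1.18 to −0.98). In total RNA it had 3969 and 1037 counts, a difference of −1.98. Adarb1, the gene of the second editing enzyme, had 46 and 136 counts in J2 (3.78 and 9.45 CPM) and 147 and 153 in total RNA. Of the 17 measured editing enzymes and double-stranded RNA binding proteins, 3 were at least 2-fold higher in J2 and 2 lower, beside 7.37% and 10.8% of all genes, with a median of 0.32 (0.05 to 0.59). Dhx9, a helicase that unwinds double-stranded RNA, had 2625 and 6543 counts, and Dgcr8, a subunit of the microRNA processor, 406 and 1005. Their total RNA differences were −0.26 and 0.06.

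MHC class I and antigen processing genes, a list added after values were seen, were also lower in J2. Of 21, 17 were at least 2-fold lower and 12 at least 4-fold (10.8% and 2.71% of all genes), with a median of −2.23 (−2.37 to −1.44) and −1.56 in total RNA, and J2 minus total had a median of −0.06. H2-T23 had 2251 and 206 counts in J2 and 1052 and 116 in total RNA. H2-Q7 had 984 and 82 counts in J2 but 180 and 166 in total RNA. The H2-Q genes share long identical stretches, so their split is uncertain.

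Collagen and matrix genes were lower in the J2 precipitate of treated cells, and several of them were higher in total RNA. Of 14 measured genes, 11 were at least 2-fold lower in J2 and 10 at least 4-fold (10.8% and 2.71% of all genes), with a median of −2.77 (−3.27 to −0.88). In total RNA 13 could be measured, 5 were at least 2-fold higher and 3 lower (6.88% and 8.53% of all genes), with a median of 0.57. Of these 13, 9 lay on opposite sides of 0 in J2 and total RNA, beside 153 of 301 zinc finger genes. The share over all genes was not counted. Col1a2, a chain of type I collagen, had 4425 and 328 counts in J2 (363 and 22.8 CPM) and 1024 and 5801 in total RNA (60.2 and 329 CPM). Its J2 level was 79.4 CPM in IgG, 5.56 CPM after 5-Aza-CdR and 31.3 CPM after the combination. High values were thus found in J2 from DMSO cells and in total RNA from treated cells. Col4a1 and Col4a2, the main chains of basement membrane collagen, had 1288 and 151, and 658 and 90 counts in J2, against 137 and 3277, and 46 and 1861 in total RNA. Fn1, fibronectin, had 1502 and 370 CPM in J2 and 1019 and 2304 CPM in total RNA. With the labels as given, Bgn, the proteoglycan biglycan, had the lowest J2 minus total of all named genes, −10.70. It had 866 and 129 counts in J2 and 11 and 4421 in total RNA, differences of −2.92 and 7.78. Col3a1 and Col6a1 were lower in both, with J2 differences of −2.13 and −3.97 and total RNA differences of −3.21 and −1.51. Sparc, which binds collagen, had 822 and 886 CPM in J2. Col6a2 had 52 and 0 counts in J2, where a count of 0 allows up to 0.208 CPM. In J2 from DMSO cells, 13 of the 14 genes were at least 2-fold above IgG (13.5% of 13293 genes were), and the pair of combination against 5-Aza-CdR gave a median of 0.77.

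The largest single difference in J2 was that of Lcn2, which encodes the iron-siderophore carrier lipocalin-2. It had 934 and 11 counts in J2 (76.7 and 0.76 CPM), a difference of −5.93, with a counting interval of −7.66 to −5.80 that carries no pseudocount and so is not centred. In total RNA it had 231 and 9 counts, and in J2 it stood at 143 CPM after 5-Aza-CdR and 280 CPM after the combination, against 1.04 CPM in IgG. Crabp1, a retinoic acid binding protein gene, had 1762 and 39 counts in J2 (145 and 2.71 CPM) but 6 and 408 in total RNA. C3, the central complement component, had 1484 and 94 counts in J2 and 582 and 158 in total RNA. Of the 8 measured acute phase and complement genes, a list added after values were seen, all were at least 2-fold lower in J2 (10.8% of all genes were), with a median of −2.88, and 6 of 7 were at least 2-fold lower in total RNA (8.53%). Cp, the copper carrier ceruloplasmin, had 3167 and 275 counts in J2 and 2874 and 276 in total RNA. Cd34, a surface sialomucin gene, and Grb10, an imprinted gene of an adaptor that dampens insulin signalling, went opposite ways, with 402 and 15, and 415 and 35 counts in J2 and 64 and 330, and 32 and 871 in total RNA. Rhox5, an X-linked homeobox gene of the germ line, did so in the other direction, with 101 and 725 counts in J2 and 622 and 15 in total RNA. With the labels as given, it had the highest J2 minus total of all named genes, 7.31. Its J2 level was 137 CPM after 5-Aza-CdR and 81.8 CPM after the combination.

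**Figure D3:**
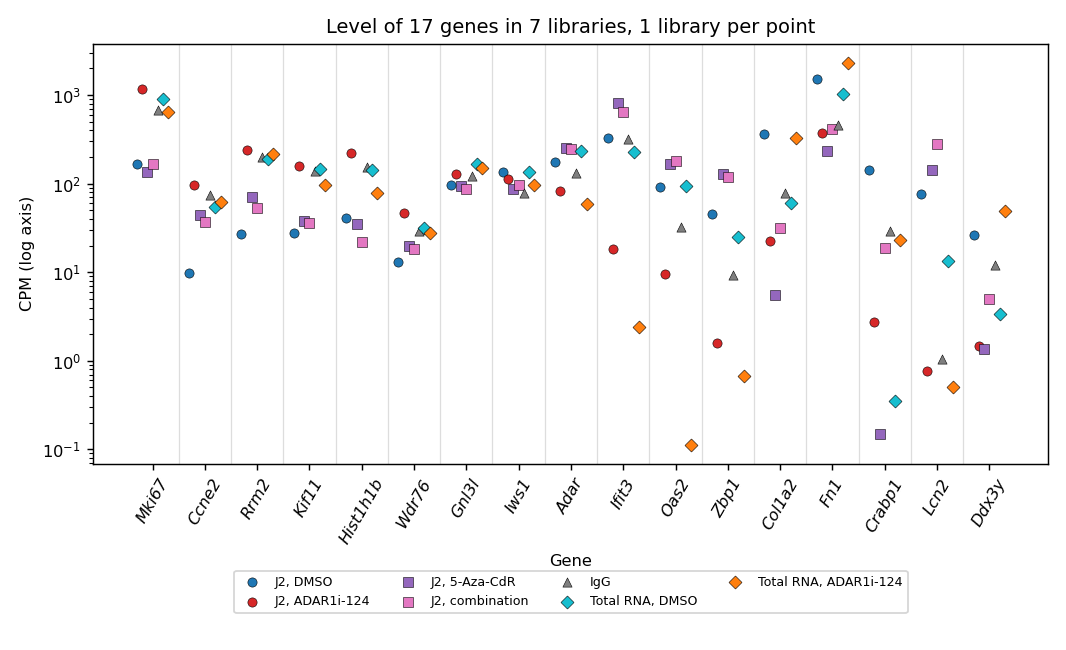
CPM on a log axis of 17 genes in 7 libraries, 1 library per point: 4 J2 precipitates, the IgG precipitate, and total RNA of the compared pair of treatments. For the genes from Mki67 to Hist1h1b the J2 library of treated cells (red circle) lies with IgG and total RNA and the J2 library of DMSO cells (blue circle) below them, and for Col1a2, Crabp1 and Ddx3y the J2 and total RNA pairs run in opposite directions.

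Targets of the stress transcription factor ATF4, a list added after values were seen, were lower in J2, and most of them were within 2-fold in total RNA. Of 20 genes, 15 were at least 2-fold lower in J2 and 10 at least 4-fold (10.8% and 2.71% of all genes), with a median of −2.01 (−2.64 to −1.16), whereas the median in total RNA was −0.41, with 4 genes at least 2-fold lower and 2 higher (8.53% and 6.88% of all genes). Ddit3, the gene of the pro-apoptotic factor CHOP, had 876 and 160 counts in J2 and 172 and 288 in total RNA. Trib3 had 1107 and 161 counts in J2 and 671 and 522 in total RNA. The list was added with values of these same J2 libraries known, so its values against IgG are a description only. Compared with IgG, 13 of the 20 were at least 2-fold higher in J2 from DMSO cells (13.5% of all genes were). None was in J2 from treated cells (5.63%).

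Immediate early genes, which respond to growth factors and stress within minutes, were higher in total RNA and mostly within 2-fold in J2. In total RNA 14 of 20 measured genes were at least 2-fold higher (6.88% of all genes were), with a median of 1.67. In J2 1 was at least 2-fold higher and 2 lower (7.37% and 10.8% of all genes), with a median of −0.32 (−0.54 to 0.30), and J2 minus total was below 0 in all 20. Jun had 592 and 1082 counts in J2 and 512 and 2906 in total RNA, and Atf3 had 290 and 116 in J2 and 147 and 680 in total RNA. Antioxidant targets of NRF2 were alike in this respect, with medians of 0.25 in J2 and 1.33 in total RNA over 15 genes. Hmox1, heme oxygenase 1, had 555 and 902 counts in J2 and 898 and 21051 in total RNA. Of 11 measured heat shock genes, 5 were at least 2-fold higher in J2 (7.37% of all genes were), with a median of 0.86 (0.32 to 1.31) there and −0.14 in total RNA. J2 minus total was above 0 in 8 of the 11 and below 0 in 3, with a median of 1.16. Bag3 and Hspa1b were among those below 0, with differences of 0.37 and 0.32 in J2 and of 1.52 and 1.08 in total RNA. Hspa8, the constitutive HSC70 chaperone, had 15311 and 49787 counts in J2 and 46099 and 58582 in total RNA.

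Hosts of hyper-edited regions had a slightly higher median in J2 than all genes. Of 242 hosts, 230 passed the minimum, with a median J2 difference of 0.25 (0.13 to 0.35) beside 0.00 over all genes. Of these, 27 were at least 2-fold higher and 15 lower, which among all genes were 7.37% and 10.8%. Hosts were also more abundant in J2, with a median level of 97.3 CPM against 19.5 CPM, and the J2 difference over all genes went from −0.17 in the lowest of 4 equal bins of level to 0.12 in the highest. In that highest bin, which holds 162 of the hosts, their median was 0.24 (0.12 to 0.37), so the distance from all genes of like level was smaller there. J2 minus total had a median of 0.41 (0.24 to 0.50) over 229 hosts, beside 0.12 over all genes, and total RNA −0.13. The study clustered these regions from sites found in its own libraries merged with a public collection of editing sites, so the list is not fully independent of these data. Hosts with a reverse-complement match near the region did not stand above the others. The 87 hosts with a match had a median of 0.16 (−0.05 to 0.36) in J2, and the 143 without one 0.28 (0.14 to 0.39). In the Z22 pair the hosts had a median of 1.24 beside 0.82 over all genes. Hosts compared with IgG had medians of −0.08 in J2 from DMSO cells and 0.12 in J2 from treated cells, and combination against 5-Aza-CdR gave 0.03.

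**Figure D4:**
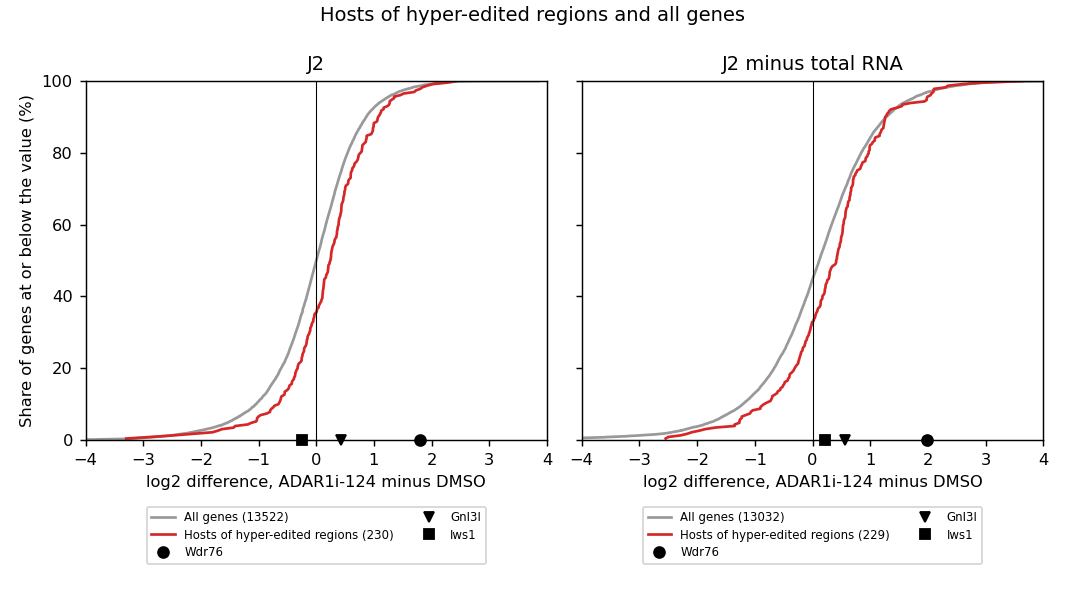
Cumulative share of genes (%) at or below each log2 difference (ADAR1i-124 minus DMSO) for all compared genes (grey) and for hosts of hyper-edited regions (red), in J2 (left) and in J2 minus total RNA (right), with values beyond 4 in either direction not drawn. The host curves run to the right of all genes over most of the range, with medians of 0.25 and 0.41, and the symbols on the axis give Wdr76 (1.80 and 1.99), Gnl3l (0.43 and 0.57) and Iws1 (−0.25 and 0.21).

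The 3 edited transcripts that the study follows differed from each other in J2. Wdr76, a WD40 repeat gene on chromosome 2 whose arms are printed above, had 159 and 674 counts in J2 (13.1 and 46.8 CPM), a difference of 1.80 (1.59 to 2.10), and 31.7 and 27.8 CPM in total RNA. It stood at 28.9 CPM in IgG, 19.8 CPM in J2 after 5-Aza-CdR and 18.3 CPM after the combination. Gnl3l, a nucleolar GTPase gene on chromosome X, had 1171 and 1871 counts in J2 (96.1 and 130 CPM), a difference of 0.43 (0.33 to 0.54), and 167 and 152 CPM in total RNA. Iws1, which couples transcription elongation to RNA export, had 1633 and 1622 counts in J2 (134 and 113 CPM), a difference of −0.25 (−0.35 to −0.15), and 135 and 98.0 CPM in total RNA. After subtraction of total RNA the values were 1.99, 0.57 and 0.21. Their counting intervals did not overlap, but there is no replicate to set the differences against.

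The hosts with the largest J2 differences in both directions were Hmmr, Gen1, Klhl24, Mmp19, Spp1 and Tapbp. Hmmr, a spindle-associated gene, had 416 and 2679 counts in J2 and 2694 and 1947 in total RNA. Gen1, which encodes an endonuclease that resolves DNA junctions, had 107 and 640 counts in J2 and 749 and 621 in total RNA. Mad2l1, of the spindle checkpoint, had 480 and 2049 in J2, and Rpa1, a single-stranded DNA binding protein gene, 1271 and 3835. None of these has a total RNA value that is higher with ADAR1i-124, and all 4 act in the cell cycle or DNA repair, although no host is a member of the mitosis, DNA replication or histone lists. Mmp19, a matrix protease gene, had 709 and 79 counts in J2 and 443 and 103 in total RNA. Klhl24 had 1090 and 171 in J2 and 891 and 569 in total RNA. Spp1, osteopontin, had 11838 and 2505 counts in J2 and 18006 and 2513 in total RNA, so that its J2 minus total was 0.41. Tapbp, the MHC loading factor tapasin, had 1936 and 517 in J2.

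Mitochondrial RNA is transcribed from both strands of a circular genome and is a source of double-stranded RNA in cells. The 15 mitochondrial mRNAs and rRNAs had a median of 0.23 (−0.14 to 0.71) in J2, and 1 was at least 2-fold higher, a share near the 7.37% of all genes. That gene, mt-Nd3, had 566 and 2726 counts in J2 (46.5 and 189 CPM) and 1080 and 359 in total RNA, and it stood at 43.7 CPM in IgG. The rRNA mt-Rnr2 took 4.31% and 4.18% of J2 counts, 3.92% of IgG counts and 0.0878% and 0.0998% of total RNA counts. mt-Nd5 and mt-Nd6, which are encoded on opposite strands, differed by 0.77 and 0.50 in J2 and by 0.46 and 0.09 in total RNA. In J2 from treated cells 6 of the 15 were at least 2-fold above IgG (5.63% of 12923 genes were), and in J2 from DMSO cells 3 (13.5% of 13293). The 14 measured nuclear genes for making or degrading mitochondrial RNA had a median of 0.41 in J2, with none past 2-fold. Pnpt1, the mitochondrial exoribonuclease PNPase, had 863 and 1187 counts.

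Of 15 nuclear long noncoding RNAs, 2 were at least 2-fold higher in J2 and 4 lower, beside 7.37% and 10.8% of all genes. Malat1 had 223507 and 75983 counts in J2 (18345 and 5278 CPM), a difference of −1.80, and 9424 and 10581 CPM in total RNA. Neat1, the scaffold of paraspeckles, had 29362 and 7500 counts in J2 and 17142 and 32181 in total RNA, differences of −2.21 and 0.86. Both stood lower in IgG, at 3977 and 255 CPM. Firre and Airn had J2 differences of −1.77 and −1.25, while Mir17hg, host of a microRNA cluster, had 72 and 279 counts. Ribosomal protein genes had a median of 0.06 (−0.07 to 0.18) over 87 genes, or −0.02 when the 20 highest genes were left out of the library sum, with 2 past 2-fold upward and none downward. Small nucleolar and Cajal body RNAs had a median of 0.35 (0.04 to 0.53), with 13 of 54 at least 2-fold higher and 3 lower, but −0.29 over the 19 that averaged 5 CPM or more. Small nuclear RNAs had −0.31 (−0.75 to 0.08), with 0 of 28 higher and 5 lower. Of 10 measured structured noncoding RNAs, 1 was at least 2-fold higher, with a median of 0.12, which was −0.48 at a minimum of 5 CPM. The 7SK RNA Rn7sk had 48093 and 64829 counts in J2, and the 7SL RNA genes Rn7s1 and Rn7s2 had 207 and 150, and 343 and 282. Among 5 loci that resemble or overlap ribosomal RNA, Lars2 was at least 2-fold lower, with 93478 and 53624 counts in J2. Of 7 targets of the aryl hydrocarbon receptor 3 were measured, with a median of −0.11 in J2. Zinc finger genes had a median of −0.04 over 304 genes, or 0.01 with TMM scaling, with 3 at least 2-fold higher and 20 lower. By annotation class, processed pseudogenes had a median of 0.23 (0.17 to 0.31) over 774 genes, with 93 at least 2-fold higher and 25 lower, and protein-coding genes 0.01 over 11065.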

How the data were processed

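RNA of Yumm1.7 cells was sequenced after precipitation with J2 (4 treatments), Z22 (4) or IgG (1) and without precipitation (4), with 1 library per condition. The authors deposited raw counts per gene from reads aligned to GRCm38 with STAR in snakePipes 2.8.0. The counting tool, the strand setting and the handling of shared reads are not given in the sources used here. Before precipitation RNA had been digested with RNase I and DNase, and libraries were depleted of ribosomal RNA.

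Counts were scaled to CPM by column sum, and log2 differences were taken after adding 0.5 CPM, over genes with a mean CPM of 1 or more. Of the gene identifiers, 54495 matched GENCODE M21 and 37 did not. Differences were not tested, since no condition is replicated, and an additive fit of both compounds over the J2 libraries was not made. Genes past 4-fold were counted over all genes and past 2-fold within lists. List medians have 95% binomial order-statistic intervals over genes, which are not replicates, and single genes have Clopper-Pearson intervals, which cover counting error only. The depth of 12183560 counts or more in the compared libraries sets the precision. The members and the gene lists were chosen with earlier results of these data known, and the DNA replication, MHC class I, ATF4, acute phase and Y-linked lists after values were seen.

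Genes named were the 15 largest J2 differences in each direction at a mean of 10 CPM or more, the 10 highest and lowest in J2 minus total at 10 CPM in J2 and 5 CPM in total RNA, every gene of lists of up to 15 measured genes, the 6 largest of longer lists at 5 CPM, and Wdr76, Iws1, Gnl3l and Adar. Not all genes the rule allows are described, and Mad2l1 and Rpa1, and Malat1 and Gm42418, were chosen after values were seen. Hyper-edited regions came from the study's supplementary coordinates. Reverse-complement matches were searched with blastn 2.17.0 (word size 7, E-value of at most 1e-05) within 2500 bases on GRCm38. Alternatives changed the pseudocount, the minimum, the scaling (edgeR 4.0.16 TMM factors, DESeq2 1.42.0 size factors, the column sum without the 20 highest genes), the biotypes and the host definition. The fold calculation was checked on simulated counts. Python 3.11.15, pandas 2.3.3, scipy 1.17.1 and R 4.3.3 were used.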

Additional observations from a re-analysis of the deposited data

Results flagged for a closer look

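Only genes picked by the naming rule were searched here, not all genes measured in both pairs. In 14 of them the J2 pair and the total RNA pair were each at least 4-fold apart, in opposite directions. With 1 library per condition the difference between the pairs was not tested, and its cause was not tested. In 13 of these 14 genes J2 was lower and total RNA higher with ADAR1i-124. Values of J2 minus total were −10.70 for Bgn, −10.29 for Crabp1, −8.06 for Col4a2, −7.72 for Col4a1 and −6.41 for Col1a2. They were −7.95 for the imprinted gene Grb10, −7.69 for Rasgrf1, −6.83 for Map1a and −6.62 for Cd34. The Y-linked genes had −7.64 (Kdm5d), −7.61 (Uty), −7.46 (Ddx3y) and −6.47 (Uba1y). Rhox5 was the 1 gene of these 14 in the other direction, with 7.31.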

How the results depend on the processing

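No analysis paired by replicate was possible because each group compared has 1 library, and leaving out a library leaves no comparison. No gene named in the alternatives changed sign, but list medians near 0 did. At a mean of at least 5 CPM the J2 median of small nucleolar and Cajal body RNAs was −0.29 over 19 genes and that of structured noncoding RNAs −0.48, and J2 minus total of the replication histone genes was 0.06. Scaling turned the sign of the J2 medians of the ribosomal protein (−0.02), zinc finger (0.01 with TMM) and neural crest (0.04 with TMM) genes and of J2 minus total of small nuclear RNAs (−0.03), and a pseudocount of 0.1 CPM that of J2 minus total of the MHC class I genes (0.02). With a pseudocount of 2 CPM, 951 genes were at least 2-fold lower in J2, 57 were at least 4-fold higher and 181 lower, and in J2 minus total 256 were at least 4-fold higher and 314 lower. With a mean of at least 5 CPM, 829 genes were at least 2-fold and 218 at least 4-fold lower in J2, and 1081 and 259 in J2 minus total. Without a filter 2699 genes were at least 2-fold lower in J2 minus total. Fewer or more genes compared, or a larger pseudocount on low genes, are part of how these alternatives are built. The J2 median of the replication histone genes was 0.70 with 2 CPM added and 1.15 with the higher minimum. Leaving the 20 highest genes out of the column sum moved the median of J2 minus total over all genes from 0.12 to −0.0046, and differences are to be read relative to it. Each list median was counted again under every alternative that applied to it. By this count, 5 values in J2 and 1 in J2 minus total fell outside the interval of the main setting, while 134 and 136 did not.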
